A study of Homo sapiens with 6 samples.

Results

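The genes described here encode the MCM helicase subunits and the proteins that load them at replication origins, in HT-1080 cells with and without interferon gamma (IFNg). They were taken by symbol from the deposited gene table: MCM2, MCM3, MCM4, MCM5, MCM6, MCM7, MCM10, CDC6, CDT1 and GMNN. All 10 were found among 17187 gene symbols, and all 10 passed the filter on low values, which kept 15546 genes. HT-1080 is an established human fibrosarcoma line, labelled wild type and grown in EMEM. The 3 control libraries came from cells given PBS, and the 3 IFNg libraries from cells given recombinant IFNg at 10 ng/ml for 8 h. Whether each library stands for its own culture is not stated, so p-values measure only the spread between these libraries, which may be technical. The series as a whole concerns ferroptosis, a form of iron-dependent cell death, in tumours attacked by CD8+ T cells.

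Replication origins are licensed before S phase. The origin recognition complex (ORC) and CDC6 bind the origin, and CDT1 brings in the hexamer of MCM2 to MCM7, which is loaded as an inactive double ring. Once S phase begins, kinases, CDC45 and the GINS complex turn the loaded ring into the active helicase, while geminin (the product of GMNN) binds CDT1 and CDT1 is degraded, so that origins are not licensed again in the same cycle. MCM10 is not a subunit of the ring but helps to start the helicase. These genes are known as targets of E2F transcription factors, and their transcripts rise as cycling cells pass from G1 into S phase.

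Promoter sequences are shown because the 10 transcripts went up and down together across the libraries. RefSeq promoter windows (GRCh38.p14, 250 bases before to 50 after a start) were searched for 8 of the 10 genes, some with more than 1 start. MCM5 had no window. MCM4 was left out of the search by choice, not for lack of a window, so the member counts below do not cover it. The letters searched, on both strands, were those of an E2F-type site: TTTCCCGC, TTTCGCGC, TTTGCCGC and TTTGGCGC. A match was present in at least 1 window of 7 of these 8 genes, MCM10 being the exception. Of all 27305 genes with a window, 3.99% had a match in at least 1. Counted by window, 7 of 11 member windows held a match, and 3.31% of all 35116 windows of the same length did. The search was made with the expression values known, and a match is a description of letters, not of bound factor. Whether these letters have any part in the shared pattern across libraries was not tested.

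Among the genes searched, MCM6 had the most matches before its start, and its window is given for that reason. It runs from 250 bases before the start to the last base before it (chr2:135876444-135876693, minus strand, GRCh38.p14, no base of it in a GENCODE 29 exon). Capitals mark the matches, which lie in 2 pairs, at bases -152 to -141 and -90 to -79, each made of TTTGGCGC on the gene's strand and an overlapping TTTCGCGC on the other.
MCM6: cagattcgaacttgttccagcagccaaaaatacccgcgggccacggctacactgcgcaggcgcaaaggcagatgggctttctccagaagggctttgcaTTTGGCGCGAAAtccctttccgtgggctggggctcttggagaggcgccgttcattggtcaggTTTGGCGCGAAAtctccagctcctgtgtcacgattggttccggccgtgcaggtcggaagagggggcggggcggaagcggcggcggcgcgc

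For the other 6 genes with a match, 24 bases around the match nearest the start are given 5′ to 3′ on the gene's own strand. The search was limited to the window and the nearest match was picked, so closeness to the start was built in. MCM3 and MCM7 each had another match farther away, at bases -174 to -167 and -187 to -180. Capitals again mark the match nearest the start. In MCM2 a further match on the other strand, at bases 7 to 14, overlaps it and is capitalised only in part. Base 1 is the start of the window that held the match, and base -1 is the base before it. MCM7 and GMNN also had windows at other starts, and those held no match.
MCM2, bases 3 to 10, chr3:127598405-127598428, plus strand: gaaccactTTTCGCGCgaaacctg
MCM3, bases -4 to 4, chr6:52284731-52284754, minus strand: tcggaagtTTTCGCGCcggggtgg
MCM7, bases -9 to -2, chr7:100101391-100101414, minus strand: gggcgacgTTTCGCGCcaatttcg
CDC6, bases 8 to 15, chr17:40287878-40287901, plus strand: cattcggaTTTGGCGCgagcgcgg
CDT1, bases -35 to -28, chr16:88803746-88803769, plus strand: gggcgcccGCGGGAAAtttggcgg
GMNN, bases -80 to -73, chr6:24775325-24775348, plus strand: gggtcggtTTTGGCGCgctctcac

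The libraries held between 59556948 and 83501954 reads assigned to genes, and no member had fewer than 1519 reads in any library. Over all genes the spread between libraries of a group exceeded counting error (chi-square over degrees of freedom 16.2 or more). For single members some libraries lay close together, as controls 1 and 2 of GMNN did (1627 and 1562). Values are normalised read counts, meaning reads divided by 1 size factor per library and not by gene length. The treatment label held: IRF1, an IFNg-induced transcription factor, was 395, 482 and 995 in control 1, 2 and 3 and 26296, 28118 and 30650 in IFNg 1, 2 and 3. Control 3 was the highest control for IRF1 and for GBP1 (1495 against 1317 and 1406), an IFNg-induced GTPase, but the lowest for TAP1 (1663 against 1912 and 2412), a peptide transporter of antigen presentation. As markers of the line, 6 mesenchymal genes summed to between 805984 and 841042 in the controls and between 728258 and 778037 with IFNg, VIM being the highest. Of 5 epithelial markers 2 were in the table (KRT5 and ESRP1), with a sum of 0 in every control and at most 18.5 with IFNg. Of 5 leukocyte markers 4 were in the table, and their sum was 8.57 to 18.4 in the controls and 40.3 to 52.0 with IFNg; the part of such RNA in the results was not tested.

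Every member had the same arrangement of libraries. Controls 1 and 2 were low, and control 3 and the 3 IFNg libraries were all higher than both. In limma over all kept genes, 3 members rose with IFNg (MCM3, MCM4 and MCM10), 0 fell, and 7 did not pass an adjusted p of 0.05. Among all 15546 genes, 3.27% were called higher by the same rule. Without control 3, 9 members rose, all but MCM7, where the share of all genes called higher was 5.45%. Control 3 was the highest control for every member, so leaving it out had to enlarge each difference.

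In the MCM ring itself, MCM3 and MCM4 rose. MCM3 was 8440, 9060 and 13455 in control 1, 2 and 3 and 14514, 15358 and 15933 in IFNg 1, 2 and 3. Control 3 lay much closer to the IFNg libraries than to the other controls, but the groups did not overlap. On the log2 scale MCM3 differed by 0.60 ± 0.15 (SE, n = 3 against 3; limma adjusted p = 0.0424), with means of 10318 ± 2734 and 15268 ± 714 (SD). MCM4 was 13710, 13815 and 19949 in the controls and 21387, 22378 and 23191 with IFNg, again without overlap (0.52 ± 0.13, limma adjusted p = 0.048).

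MCM2 and MCM6 had the same arrangement without passing the test. MCM2, whose product binds histones as well as forming part of the ring, was 11236, 12906 and 19446 in the controls and 17611, 17555 and 18570 with IFNg. Control 3 was here the highest of all 6 libraries. Its log2 difference was 0.34 ± 0.16 (limma adjusted p = 0.34). MCM6 was 6932, 7125 and 10302 in the controls and 10229, 9658 and 11453 with IFNg, so that control 3 sat inside the IFNg range (0.38 ± 0.14, limma adjusted p = 0.199).

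MCM5 and MCM7 had the smallest differences. MCM5 was 8568, 10673 and 13320 in the controls and 12824, 12305 and 12793 with IFNg. Control 3 exceeded every IFNg library, and the MCM5 difference was 0.24 ± 0.13 (limma adjusted p = 0.445). MCM7, the subunit whose gene also hosts a microRNA cluster in an intron, was 20042, 23522 and 28358 in the controls and 24683, 23807 and 27411 with IFNg. Its log2 difference was 0.09 ± 0.12 (95% interval -0.17 to 0.35, limma adjusted p = 0.808). That interval includes both a fall and a rise, and control 2 was almost level with IFNg 2.

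**Figure D1:**
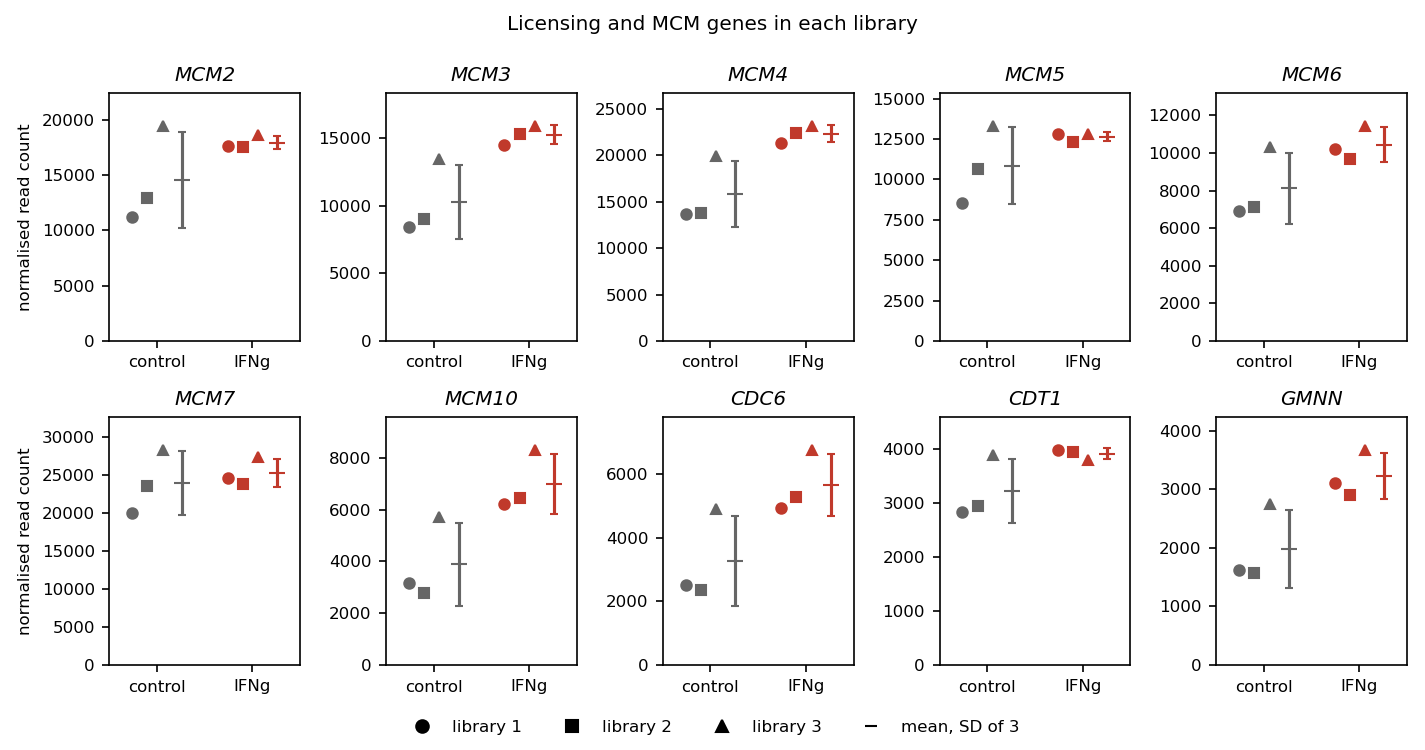
Normalised read count (y axis, linear from 0) of each of the 10 genes in control (grey) and IFNg (red) libraries; circles, squares and triangles are libraries 1, 2 and 3, and bars show the mean and SD of 3 libraries. In all 10 panels the control triangle lies above the control circle and square, and in MCM3, MCM4, MCM10, CDC6 and GMNN it still lies below every IFNg library.

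MCM10 and CDC6 had the largest differences of the 10 members, and CDT1 one of the smaller ones. MCM10 was 3157, 2794 and 5734 in the controls and 6207, 6458 and 8318 with IFNg. No IFNg library overlapped a control, and IFNg 3 stood above the other 2 IFNg libraries. The log2 difference of MCM10 was 0.91 ± 0.22 (limma adjusted p = 0.0394), and its mean rose from 3895 ± 1603 to 6994 ± 1153 (SD, n = 3 each).

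CDC6, the ATPase that works with ORC to load the ring, was 2518, 2364 and 4895 in the controls and 4927, 5289 and 6765 with IFNg. The groups did not overlap, but control 3 and IFNg 1 were almost level. The CDC6 log2 difference of 0.87 ± 0.23 did not pass (limma adjusted p = 0.0609; 95% interval 0.36 to 1.37). CDT1, which escorts the ring to the origin, was 2825, 2933 and 3890 in the controls and 3977, 3944 and 3794 with IFNg. Here IFNg 3 was the lowest IFNg library and lay below control 3. Its difference was 0.29 ± 0.13 (limma adjusted p = 0.296).

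GMNN, whose product inhibits CDT1, was 1627, 1562 and 2740 in the controls and 3100, 2901 and 3673 with IFNg. The groups did not overlap, yet the log2 difference of 0.75 ± 0.19 just missed the threshold (limma adjusted p = 0.053). Inhibitor and target differed in size of change: the ratio of CDT1 to GMNN counts was 1.74, 1.88 and 1.42 in the controls and 1.28, 1.36 and 1.03 with IFNg. Every IFNg library was below every control for this ratio, control 3 being the nearest; the ratio was not tested, and it compares libraries rather than the amounts of the 2 transcripts.

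The groups did not overlap, with every IFNg library above every control, for 5 of the 10 members: MCM3, MCM4, MCM10, CDC6 and GMNN. Of all kept genes, 10.7% had this arrangement. The median log2 difference of the 10 members was 0.45, beside -0.01 over all kept genes. The counts moved with the test: edgeR's quasi-likelihood test on the recovered reads called 0 of the 10 (6 had an unadjusted p under 0.05; 3.47% of all genes were called higher), and DESeq2 called 3, namely MCM3, MCM4 and GMNN (4.1% of all genes). Each of the 3 calls made by limma was lost when any 1 library other than control 3 was left out (adjusted p of 0.0877 to 0.25).

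The number of members that passed depended on control 3. For each member it was above controls 1 and 2, an arrangement found in 36.2% of all kept genes. On the log2 scale control 3 exceeded the mean of controls 1 and 2 by 0.39 for MCM7 to 0.95 for MCM10 and slightly more for CDC6, with a median of 0.59 over the members and 0.01 over all kept genes. As counts, CDC6 in control 3 was 2.01 times the mean of the other controls, MCM10 1.93 times and GMNN 1.72 times. The full arrangement, with controls 1 and 2 below control 3 and all IFNg libraries, was present in 10 of 10 members and in 12.9% of all kept genes.

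Library 3 of the IFNg group also tended to be high, but by less. It was above IFNg 1 and 2 for 8 members, all but MCM5 and CDT1, where 38.0% of all kept genes had it highest. Its step over the mean of IFNg 1 and 2 had a median of 0.14 over the members, and reached 0.41 for CDC6 and 0.39 for MCM10. For CDT1 the step was -0.06.

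Within a library number the difference depended on the number. IFNg 1 exceeded control 1 for all 10 members, by 0.30 (MCM7) to 0.98 (MCM10) on the log2 scale. Between IFNg 2 and control 2 the range was 0.02 (MCM7) to 1.21 (MCM10), again above 0 for all 10. Between IFNg 3 and control 3 it was -0.07 (MCM2) to 0.54 (MCM10), and MCM2, MCM5, MCM7 and CDT1 were below 0. The number is a label in the titles and no batch is stated for it; what sets control 3 apart was not tested.

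**Figure D2:**
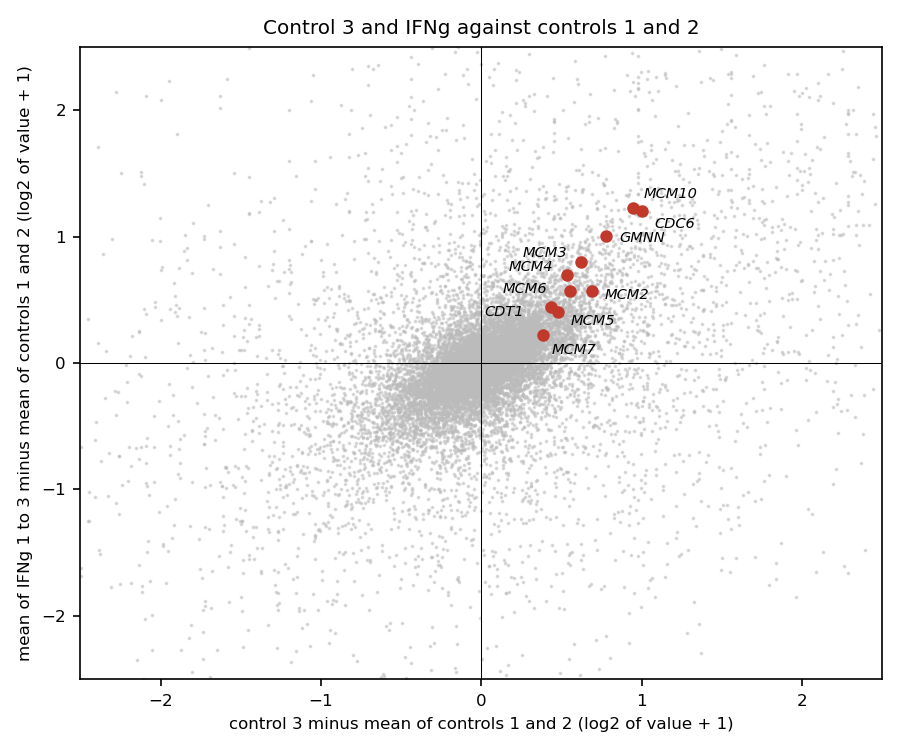
Log2(value + 1) of control 3 minus the mean of controls 1 and 2 (x axis) against the mean of the 3 IFNg libraries minus the same 2 controls (y axis), for kept genes within 2.5 of 0 on both axes (grey) and the 10 members (red). Both axes share controls 1 and 2, so the slant of the cloud is partly built in; all 10 members lie to the upper right, from MCM7 (0.39, 0.22) to MCM10 (0.95, 1.22) and CDC6 beside it.

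Without control 3 the spread of the controls was smaller and the differences larger. MCM10 then differed by 1.22 ± 0.13 on the log2 scale (limma adjusted p = 5.93e-05), CDC6 of 1.20 ± 0.13 and GMNN of 1.01 ± 0.13. MCM3 (0.80 ± 0.09) and MCM4 (0.70 ± 0.08) followed. The other ring subunits were MCM2 at 0.57 ± 0.09, MCM6 at 0.57 ± 0.10 and MCM5 at 0.40 ± 0.10, and CDT1 was at 0.44 ± 0.10. MCM7, at 0.22 ± 0.10, did not pass (limma adjusted p = 0.226). The other 9 had limma adjusted p up to 0.0288. edgeR without control 3 called the same 9 genes (5.95% of all genes higher), and so did limma without both libraries numbered 3 (5.67%). In these fits without control 3, the control group rested on 2 libraries. Since control 3 was the highest control of every member, leaving it out alone had to raise each difference. Dropping it also lowered the spread that the test uses, so the small adjusted p are partly built in. As all these fits drop control 3, they are not separate support for one another.

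**Figure D3:**
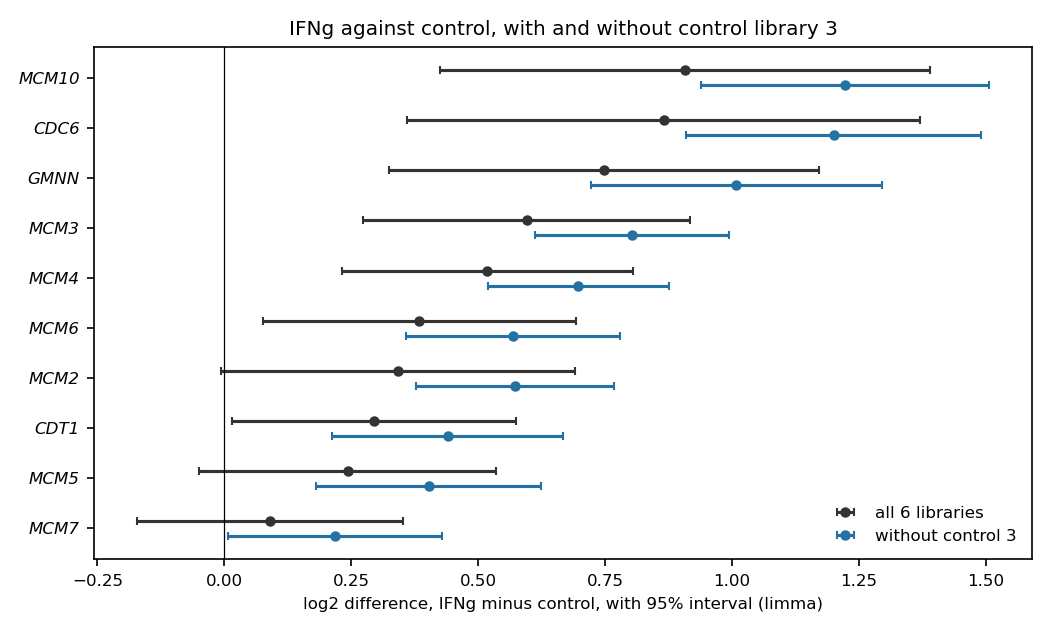
Limma log2 difference between IFNg and control with its 95% interval (x axis) for each member (y axis), from all 6 libraries (dark) and without control 3 (blue). Without control 3 each estimate moves to the right and its interval narrows; with all libraries the intervals of MCM2, MCM5 and MCM7 include 0.

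The order of the members by level was read per kilobase of GENCODE 29 exon, since read counts are not corrected for length. No label or header gives the gene models behind the counts, so these levels are approximate. In the controls MCM7 was highest, at a mean of 5466 normalised reads per kilobase, followed by MCM2 (2964), MCM3 (2827), MCM4 (2269), MCM6 (1972) and MCM5 (1479). Apart from MCM7, each of these subunits overlapped its neighbour in this order across the control libraries. Within each control library, however, the order from MCM3 to MCM5 held. MCM2 was below MCM3 in control 1 (2292 against 2312) and above it in controls 2 and 3. The other genes were lower per kilobase, with means of 964 for CDT1, 798 for GMNN, 714 for MCM10 and 587 for CDC6. These 4 overlapped one another in order, but their order was the same within each control library. The highest control of CDT1 (1166) lay just under the lowest of MCM5 (1168).

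With IFNg the same per-kilobase order of ring subunits changed in 1 place, MCM3 (4183) standing above MCM2 (3654), and no subunit overlapped its neighbour. The other 4 then had means of 1302 (GMNN), 1282 (MCM10), 1171 (CDT1) and 1019 (CDC6) per kilobase, and each overlapped the next. Reads of 2 members may include those of other genes, as no source states whether the counting used strand. In GENCODE 29, 23.6% of the exon bases of MCM2 are shared with other genes, mainly an antisense transcript, and 8.94% of those of MCM7 with AP4M1 on the other strand. The share of MCM7 in the summed counts of MCM2 to MCM7 was 29.1%, 30.5% and 27.1% in the controls and 24.4%, 23.6% and 25.1% with IFNg. Those groups did not overlap, and the share was not tested.

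The 10 profiles were alike across the 6 libraries. Pearson's r of each member with the mean centred log2 profile of MCM2 to MCM7 (leaving the gene itself out) was 0.82 for MCM7 and between 0.93 and 0.98 for the other 9, over 6 libraries that share the split described above. Of 11691 non-members with a mean count of at least 100, the 5 closest to the mean profile were CHAF1B, LRIG3, RFC3, FEN1 and TCF19, with r between 0.996 and 0.998. CHAF1B is a subunit of the histone chaperone CAF-1, RFC3 part of the clamp loader and FEN1 a flap endonuclease of lagging-strand synthesis. FEN1, for example, was 4807, 5686 and 10292 in the controls and 9846, 9474 and 12068 with IFNg. An r of at least 0.9 was found for 464 of these genes, and the median over all of them was -0.03.

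Neighbouring steps of replication were described with 8 lists covering 88 other genes, of which 4 rose (WDHD1, CDC7, POLA2 and CLSPN) and 0 fell in limma, where 3.27% of all kept genes were called higher. Their median log2 difference was 0.25, and control 3 was above controls 1 and 2 for 67 of them (36.2% of all kept genes). Without control 3, 33 of the 88 rose and 0 fell (5.45% of all kept genes higher). Lists are given by counts and medians only.

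Upstream of loading, 0 of 6 ORC subunit genes passed (median log2 difference 0.15). ORC1, the subunit whose transcript is tied to E2F, followed the members: 1166, 1062 and 2767 in the controls and 2437, 2661 and 2879 with IFNg (0.81 ± 0.28, limma adjusted p = 0.166; 1.25 without control 3, adjusted p = 6.52e-05). ORC6 was at 0.48 ± 0.19 (limma adjusted p = 0.256). For ORC2, ORC3 and ORC4, control 3 was not the highest control. Among 5 other MCM family and MCM-binding genes 0 passed. MCMBP, which binds free MCM subunits, was 11182, 10803 and 14143 in the controls and 14907, 15707 and 16899 with IFNg (0.40 ± 0.11, limma adjusted p = 0.0669), and MCM8, a helicase of recombination, was at 0.26 ± 0.11 (limma adjusted p = 0.289).

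Downstream, 2 of 14 genes of helicase activation and origin firing rose and 0 fell (median 0.33). CDC7, the kinase that phosphorylates the MCM ring, went from 2095 ± 355 to 3141 ± 356 (limma adjusted p = 0.0357), and WDHD1, which links helicase and polymerase alpha, from 3415 ± 459 to 4791 ± 262 (limma adjusted p = 0.0311). All 14 had control 3 above both other controls, and 9 rose without it, among them CDC45 and the GINS subunits GINS1, GINS2 and GINS3. Of 6 fork protection genes 1 rose: CLSPN, the checkpoint adaptor claspin, went from 5115 ± 1416 to 8452 ± 982 (limma adjusted p = 0.0212). Of 23 polymerase, clamp and clamp loader genes 1 rose, POLA2 (3066 ± 717 to 4631 ± 349, limma adjusted p = 0.0381), and 10 did without control 3.

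**Figure D4:**
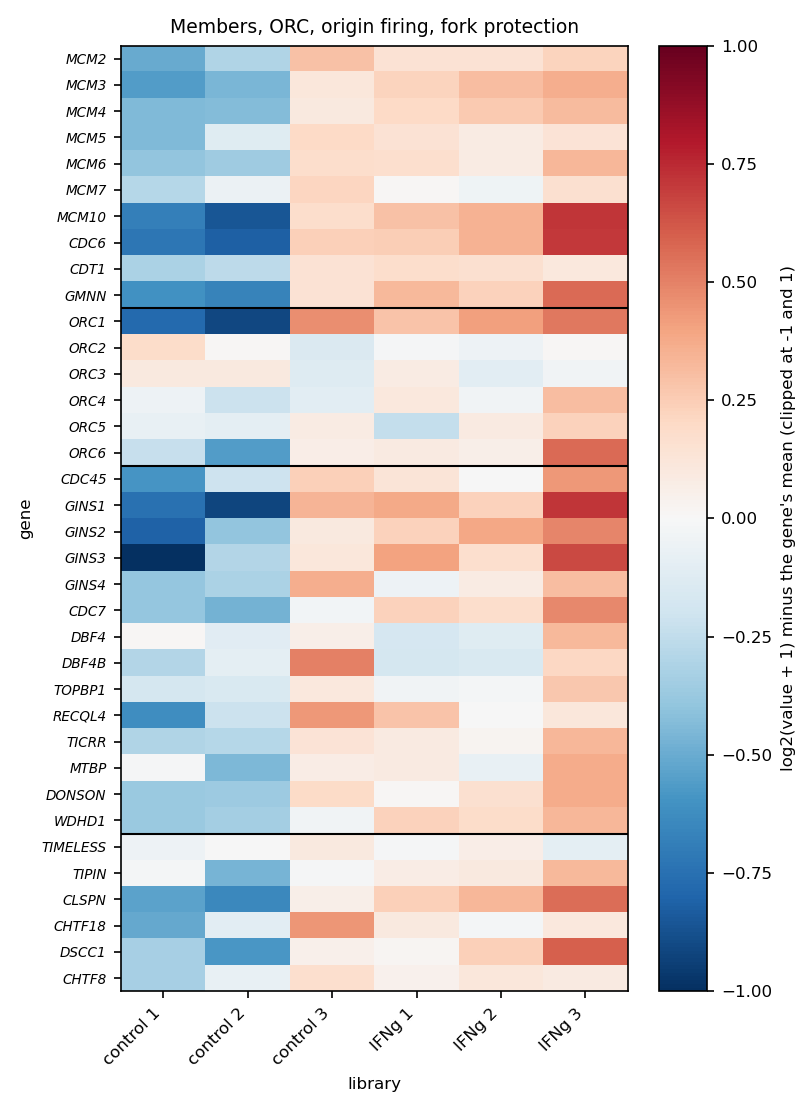
Log2(value + 1) minus each gene's mean over the 6 libraries (colour, clipped at -1 and 1) for the 10 members, then 6 ORC, 14 origin firing and 6 fork protection genes, separated by lines; columns are libraries. Controls 1 and 2 are blue for all 10 members, while control 3 shares the red of the IFNg libraries except for MCM7, which is near 0 or slightly blue in IFNg 1 and 2.

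Among 13 genes of CDT1 and CDC6 turnover and S phase kinase activity 0 passed, with a median log2 difference of -0.06 and a range of -0.30 to 0.68. The genes named next are the largest differences and both are rises, unlike the median. DTL, the substrate receptor that directs CDT1 to degradation, was 3611, 3595 and 7257 in the controls and 6429, 7448 and 8073 with IFNg (0.68 ± 0.22, limma adjusted p = 0.136), and CDK2 was at 0.44 ± 0.15 (limma adjusted p = 0.156). Of 13 E2F and RB family genes 0 passed (median 0.19, range -0.47 to 1.38), and control 3 was above controls 1 and 2 for only 7 of them. The activator E2F1 was 1891, 1688 and 3052 in the controls and 3373, 3224 and 2971 with IFNg (0.58 ± 0.19, limma adjusted p = 0.132). E2F2, also an activator, was at 157, 121 and 597 in the controls and 540, 440 and 853 with IFNg (1.38 ± 0.49, limma adjusted p = 0.184). For both, control 3 lay within the range of the IFNg libraries and far above controls 1 and 2. Of 8 genes of nucleotide supply 0 passed (median 0.24), with DCK at 0.37 ± 0.15 and DUT at 0.30 ± 0.11 (limma adjusted p = 0.262 and 0.218).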

How the data were processed

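Per the labels' protocols, rRNA-depleted total RNA of 6 HT-1080 samples (3 control, 3 IFNg) went into stranded libraries that were read from both ends for 50 cycles. Tools listed in the submitters' processing notes, with no role, are Cuffdiff 2.2.1, Cufflinks, TopHat2 2.0.13 and FastQC 0.11.3, and builds are hg19 and GRCh37. The read counter and its strand setting, not given in the sources used here, are unknown. Although named RPKM, the deposited signal values are reads divided by 1 size factor per library: 100% of positive values were whole multiples of 1 step (tolerance 0.001 reads). The main test was limma 3.58.1 (R 4.3.3) on log2(value + 1) with a variance trend, 2-sided, Benjamini-Hochberg over the 15546 genes that reached 0.5 in 3 or more libraries. edgeR 4.0.16 and DESeq2 1.42.0 were run on the recovered reads. The scripts were tested on simulated data. The members, the lists and the alternatives were chosen with earlier results of these data known. All members were named. In each list the genes past the threshold were named (at most the 4 with the smallest adjusted p), or, where none passed, the 2 with the largest absolute difference among those with a mean of at least 100. The 5 genes of highest r with the MCM2 to MCM7 profile were also named. CDC45, GINS1 to GINS3 and ORC2 to ORC4 were named after their values were seen, and the E2F-type promoter search was chosen then too. No library was a copy of another: chi-square over degrees of freedom was 16.2 or more for every pair within a group.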

Additional observations from a re-analysis of the deposited data

How the results depend on the processing

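The 10 members were refitted under 18 alternatives. Of the 180 refitted differences, 128 kept both direction and side of the threshold, 28 gained a call, 23 lost one and 1 reversed: MCM7, at -0.032 without control 1, in a range of -0.032 to 0.218 (without control 3) when 1 library was left out.

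The count of members called higher (3) became 0 without the variance trend (5 with an unadjusted p under 0.05) and in edgeR, 7 with a replicate block, 7 with a term for libraries numbered 3, 9 without both libraries numbered 3 and 9 in edgeR without control 3, an alternative added after seeing the data. Leaving out 1 library gave 0 to 9 members, 9 only without control 3. Small changes of setting moved the count too. A pseudocount of 0.5 instead of 1 gave 2, MCM4 being lost (limma adjusted p = 0.0514). A filter at 10 instead of 0.5 gave 4, GMNN being gained (limma adjusted p = 0.0459). No member was called lower in limma, edgeR or DESeq2, under any alternative. Genes called over the whole table (509 higher, 163 lower) were 279 and 41 without the trend, 915 and 549 with the block, 966 and 573 with the number 3 term, 882 and 599 without both libraries numbered 3, 865 and 498 in edgeR without control 3, and 332 lower in DESeq2; leaving out 1 library gave 330 to 847 higher and 37 to 455 lower. The genes of the 8 lists (4 higher, 0 lower) were 0 higher without the trend, 11 in DESeq2, 29 with the block, 32 with the number 3 term, 28 without both libraries numbered 3 and 34 in edgeR without control 3; 2, 2 and 1 were lower with the block, the number 3 term and without both. Leaving out 1 library gave 0 to 33 higher.

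The replicate numbers paired the libraries weakly at most. Deviations from the group means correlated at 0.04, 0.02 and 0.11 for numbers 1, 2 and 3. Each library correlated best with its own number except control 2 and IFNg 2. A library numbered 3 correlated at -0.07 to -0.04 with libraries 1 and 2 of the other group. Deviations cancel within a group, so these negative values are largely built in once the value for number 3 is positive. No batch is stated for the numbers, so the block shares only a number. The median-of-ratios scaling is already in the deposited values, and TMM moved the mean log2 value of each library by at most 0.0128. The cause of the changes with control 3 was not tested.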
